A study of Mus musculus with 4 samples.

Results

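A set of 10 genes of tendon and of the collagen-binding matrix were followed across the muscle arrays of this study: the tendon genes Tnmd, Scx, Fmod, Comp, Thbs4, Chad and Kera and the small leucine-rich proteoglycan genes Dcn, Lum and Bgn. They were taken by symbol from a list of 10, each read by its brightest transcript cluster that carries 1 gene symbol. This list and the other gene lists below were chosen with earlier results of these data known. Counts in a list set against shares of all tested genes are therefore descriptions, and do not show how unusual the list is. All 10 were found among 22180 genes on the array, and all 10 passed the level filter that kept 13258 genes for comparison. Fmod and Bgn had 2 clusters each and the other 8 had 1.

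Gastrocnemius, a calf muscle, was profiled on 4 Affymetrix arrays, 1 for each of 4 groups. Wild-type (WT) mice and mice with the Klf15 gene deleted only in skeletal muscle (KO), which lack that transcription factor there, were given either sodium citrate vehicle or streptozotocin (STZ), which destroys the insulin-producing beta cells. STZ was injected intraperitoneally at 50 mg/kg in 50 mM citrate at pH 4.5 on 5 consecutive days, and muscle was taken 3 weeks after treatment. The sources used here do not give the strain, age or sex of the mice, the promoter that drives the deletion, or whether an array held RNA of 1 or several mice. With 1 array per group there is no error between animals, so the comparisons carry no test and no p-value. Higher and lower describe single arrays.

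Tendon joins muscle to bone and consists mainly of parallel collagen fibrils laid down by tendon fibroblasts. Small leucine-rich proteoglycans are secreted proteins that sit on collagen fibrils and help to set their width and spacing, and several of them carry glycosaminoglycan chains. Within muscle, genes of this kind are expressed mostly by fibroblasts of the connective tissue sheaths and at the tendon insertion, not by the muscle fibres. In bulk RNA, fewer cells of a type and less RNA per cell cannot be told apart.

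Levels below are the deposited linear intensities. Differences are on the scale log2(intensity + 3.69), with 3.69 set at percentile 25 of the whole table, and a difference of 0.58 corresponds to 1.5-fold. On this scale the change of a dim gene is understated. The 4 arrays correlated with r between 0.987 and 0.991 across clusters, and their log2 medians lay within 0.035. Klf15 itself read 50.5 on WT vehicle, 72.1 on WT STZ, 19.8 on KO vehicle and 16.04 on KO STZ, so both KO arrays lay below both WT arrays. Markers of muscle fibres, such as Ckm and Myh4, were present at a summed intensity of 49514 on WT vehicle, 47818 on WT STZ, 48688 on KO vehicle and 48068 on KO STZ, over 10 of 10 listed genes. Both KO arrays lay below both WT arrays in 6 of these 10 markers, against 23.9% of tested genes, and above them in 2. The median KO differences of these markers were small, at -0.047 under vehicle and -0.046 under STZ.

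The sequence before the start of transcription is shown for Chad, which had the greatest KO difference of the 10 genes, and for Tnmd, Fmod, Thbs4 and Bgn, which like Chad were lowest on the WT vehicle array. The RefSeq promoter table, build GRCm38.p6, held 6 of the 10 genes, and 250 bases before the start are printed. Capitals mark an E-box (CANNTG, the kind of site bound by basic helix-loop-helix factors such as scleraxis, the product of Scx), CCACCC or its reverse complement GGGTGG (a kind of site bound by Kruppel-like factors), and TATAAA or its reverse complement TTTATA.
Chad: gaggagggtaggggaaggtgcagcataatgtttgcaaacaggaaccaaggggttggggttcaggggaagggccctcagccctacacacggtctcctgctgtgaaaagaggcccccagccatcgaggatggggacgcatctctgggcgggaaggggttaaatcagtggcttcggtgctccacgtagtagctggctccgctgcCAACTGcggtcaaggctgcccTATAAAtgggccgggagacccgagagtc
Tnmd: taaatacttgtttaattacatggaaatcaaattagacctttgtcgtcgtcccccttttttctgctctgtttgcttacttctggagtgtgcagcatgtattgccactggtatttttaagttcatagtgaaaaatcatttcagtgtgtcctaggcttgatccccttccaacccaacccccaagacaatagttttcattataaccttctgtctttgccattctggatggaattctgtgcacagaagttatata
Fmod: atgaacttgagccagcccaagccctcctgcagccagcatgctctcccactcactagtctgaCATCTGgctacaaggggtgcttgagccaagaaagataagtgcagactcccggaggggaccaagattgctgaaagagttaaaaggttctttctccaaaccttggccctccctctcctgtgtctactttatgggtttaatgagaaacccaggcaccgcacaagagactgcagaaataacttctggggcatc
Thbs4: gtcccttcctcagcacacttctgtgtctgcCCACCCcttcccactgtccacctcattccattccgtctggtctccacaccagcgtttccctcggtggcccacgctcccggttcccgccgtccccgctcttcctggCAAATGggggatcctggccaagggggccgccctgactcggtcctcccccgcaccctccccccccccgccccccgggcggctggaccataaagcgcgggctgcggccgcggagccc
Bgn: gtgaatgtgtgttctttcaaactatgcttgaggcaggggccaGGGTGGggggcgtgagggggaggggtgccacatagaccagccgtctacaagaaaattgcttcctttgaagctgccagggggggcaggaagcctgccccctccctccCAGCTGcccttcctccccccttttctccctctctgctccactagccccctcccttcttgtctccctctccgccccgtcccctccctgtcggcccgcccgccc
The windows are chr11:94564797-94565046 on the plus strand for Chad, chrX:133850758-133851007 plus for Tnmd, chr1:134037004-134037253 plus for Fmod, chr13:92794819-92795068 minus for Thbs4 and chrX:73483351-73483600 plus for Bgn. Among the 6 windows held, an E-box was found in Chad, Fmod, Thbs4 and Bgn, with 1 match each. Of all 32851 promoter windows, 66.2% held an E-box. CCACCC or its complement was found in Thbs4 and Bgn, with 1 match each, and in 28.1% of all windows. TATAAA was found in Chad, 1 match, and in 12.4% of all windows. The Tnmd window held none of these letters, and neither did the Kera window, which is not printed. The matches are a description of letters only.

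**Figure D1:**
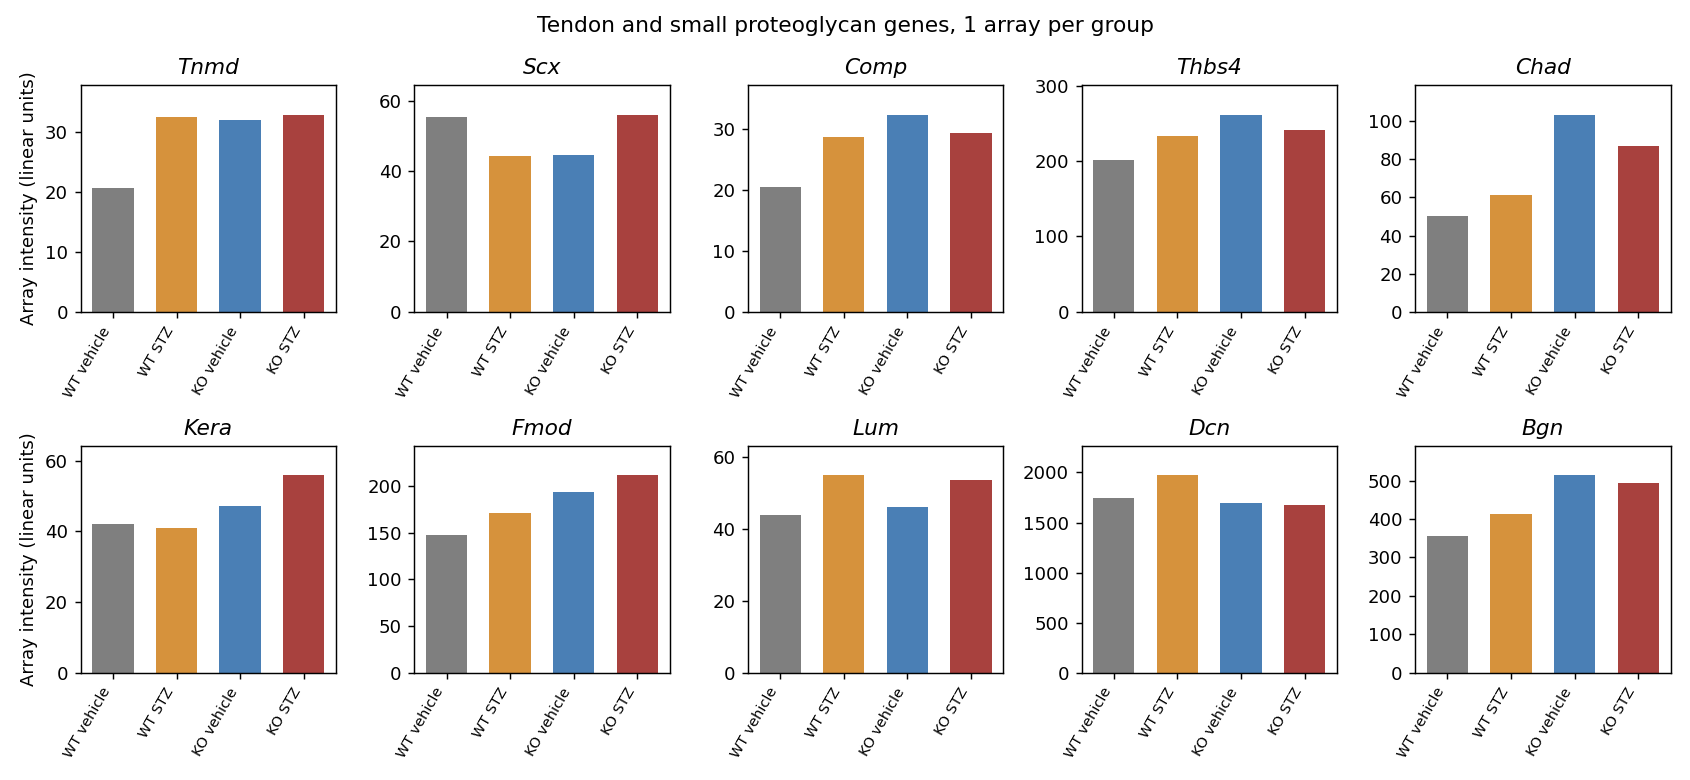
Deposited intensity (linear units, axis from 0, a separate axis for each gene) of the 10 genes on the 4 arrays, 1 bar per array. The WT vehicle bar is the lowest for Tnmd, Comp, Thbs4, Chad, Fmod, Lum and Bgn.

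Among the genes that mark tendon cells, Tnmd, which encodes tenomodulin, a membrane glycoprotein of mature tendon cells, read 20.7 on WT vehicle, 32.5 on WT STZ, 31.9 on KO vehicle and 32.9 on KO STZ. The WT vehicle array was low and the other 3 arrays lay close together. KO stood 0.55 above WT under vehicle and 0.015 above it under STZ. STZ stood 0.57 above vehicle in WT and 0.039 above it in KO.

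Scx encodes scleraxis, the transcription factor that marks tendon progenitors. Its intensity was 55.3 on WT vehicle, 44.2 on WT STZ, 44.6 on KO vehicle and 56.1 on KO STZ. WT vehicle and KO STZ were therefore the high arrays, and Scx was the only gene of the 10 with this order. KO differed from WT by -0.29 under vehicle and by 0.32 under STZ, and the STZ effect in KO exceeded that in WT by 0.61, at rank 193 from the top of 13258 genes. Scx overlaps the ribosome biogenesis gene Bop1 in the RefSeq table (GRCm38.p6), and Bop1, which is named outside the naming rule because of this overlap, read 48.9, 45.9, 43.6 and 49.1 in the same order of arrays. The Bop1 values also were higher in WT vehicle and KO STZ than on the other arrays. Mkx, another tendon transcription factor, lay just above the level filter at 5.91, 6.92, 5.39 and 6.24 in the same order.

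Among the matrix glycoproteins, Comp encodes cartilage oligomeric matrix protein, a thrombospondin-family protein that binds collagen. Comp read 20.5 on WT vehicle, 28.8 on WT STZ, 32.4 on KO vehicle and 29.3 on KO STZ. WT vehicle was again the low array, and both KO arrays lay above both WT arrays, although KO STZ and WT STZ differed by only 0.024. KO stood 0.58 above WT under vehicle, at rank 86, which is a plain ratio of 1.58. In the RefSeq table Comp overlaps the predicted gene Gm51533.

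Thbs4 encodes thrombospondin 4, a relative of Comp found at tendon and muscle attachments. It read 202.1 on WT vehicle, 232.9 on WT STZ, 261.9 on KO vehicle and 241.9 on KO STZ. The KO difference was 0.37 under vehicle and 0.054 under STZ, with both KO arrays above both WT arrays.

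Chad encodes chondroadherin, a leucine-rich repeat protein that binds collagen and integrins. It read 50.2 on WT vehicle, 61.2 on WT STZ, 103.5 on KO vehicle and 87.2 on KO STZ. The genotypes did not overlap, and the plain ratio of KO to WT was 2.06 under vehicle and 1.42 under STZ. The KO difference under vehicle was 0.99, at rank 4 from the top of 13258 genes, and that under STZ was 0.49, at rank 222. The STZ difference was 0.27 in WT and -0.24 in KO, a difference of -0.51 between the STZ effects. Chad overlaps Acsf2, an acyl-CoA synthetase gene, in the RefSeq table. Acsf2, also named outside the rule, read 10.9, 11.6, 11.5 and 6.85 on WT vehicle, WT STZ, KO vehicle and KO STZ, so its array order was not that of Chad.

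The class of proteoglycans with keratan sulphate chains includes Fmod, Lum and Kera. Fmod encodes fibromodulin, which limits fibril growth and binds the same collagen region as lumican. Its brightest cluster read 147.8 on WT vehicle, 170.8 on WT STZ, 192.9 on KO vehicle and 211.3 on KO STZ. Both KO arrays were above both WT arrays, by 0.38 under vehicle and 0.30 under STZ. The other Fmod cluster read 35.3, 40.2, 35.9 and 42.3 in the same order, with KO differences of 0.023 and 0.067, so the KO difference was carried by the brightest cluster.

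Kera encodes keratocan, best known from cornea and also present in tendon. Its intensity was 42.1 on WT vehicle, 41.0 on WT STZ, 47.2 on KO vehicle and 55.9 on KO STZ. Unlike Tnmd and Comp, it differed more between genotypes under STZ (0.42, rank 399) than under vehicle (0.15). Lum encodes lumican. It read 43.9 on WT vehicle, 55.03 on WT STZ, 46.2 on KO vehicle and 53.7 on KO STZ, and so both STZ arrays lay above both vehicle arrays. The STZ difference for Lum was 0.30 in WT and 0.20 in KO, while its KO differences were 0.068 under vehicle and -0.033 under STZ. The latter was 0.074 under quantile normalization and 0.056 with the loess trend removed.

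The chondroitin and dermatan sulphate class includes Dcn and Bgn. Dcn encodes decorin, the small proteoglycan that decorates collagen fibrils in most connective tissues, and read 1746 on WT vehicle, 1972 on WT STZ, 1694 on KO vehicle and 1670 on KO STZ. WT STZ was the high array, and Dcn was the 1 gene of the 10 with both KO arrays below both WT arrays, a pattern seen in 23.9% of tested genes. Its KO difference was -0.043 under vehicle, which turned to 0.024 under quantile normalization and 0.047 with the loess trend removed, and -0.24 under STZ, which shrank to -0.046 with the loess trend removed.

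Bgn encodes biglycan, the closest relative of decorin. Its brightest cluster read 355.6 on WT vehicle, 412.2 on WT STZ, 513.6 on KO vehicle and 494.0 on KO STZ. The genotypes did not overlap, with KO differences of 0.53 under vehicle (rank 135) and 0.26 under STZ. The other Bgn cluster read 61.9, 74.2, 79.4 and 67.3 in the same order, with differences of 0.34 and -0.13, so the clusters agreed under vehicle and differed in sign under STZ.

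For the KO comparison under vehicle, which asks what loss of KLF15 changed without diabetes, the 10 genes had a median difference of 0.37 against -0.0039 over all 13258 tested genes. Of the 10, 8 were above 0, against 49.1% of tested genes. Because the genes were chosen with earlier results of these data known, this contrast and those that follow are descriptions only. Chad was the 1 gene at least 1.5-fold higher, against 0.581% of tested genes, and 0 were 1.5-fold lower, against 0.777%. None reached 2-fold on this scale, against 0.0226% of tested genes higher and 0.0754% lower. Comp, Tnmd and Bgn lay just under 1.5-fold (0.58) at 0.58, 0.55 and 0.53, and Scx and Dcn were the genes below 0. The whole range ran from -0.29 in Scx to 0.99 in Chad.

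For the KO comparison under STZ, the median of the 10 genes was 0.16, against -0.048 over all tested genes and -0.11 over the 7212 genes above percentile 75 of level, where all 10 lie. Again 8 of 10 were above 0, against 41.8% of tested genes, and Lum and Dcn were below. None reached 1.5-fold in either direction, against 0.845% of tested genes on the higher side and 2.81% on the lower side, and at 2-fold these shares were 0.0528% and 0.287%. Chad and Kera stood highest, at 0.49 and 0.42. The median depended on the scaling: it was 0.34 under quantile normalization and 0.31 with the loess trend removed. It also depended on the choice of cluster: it was 0.058 when all clusters of a gene were averaged, which changes only Fmod and Bgn among the 10. Over all genes, 112 were 1.5-fold higher and 372 lower, and under quantile normalization these counts were 155 and 243.

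**Figure D2:**
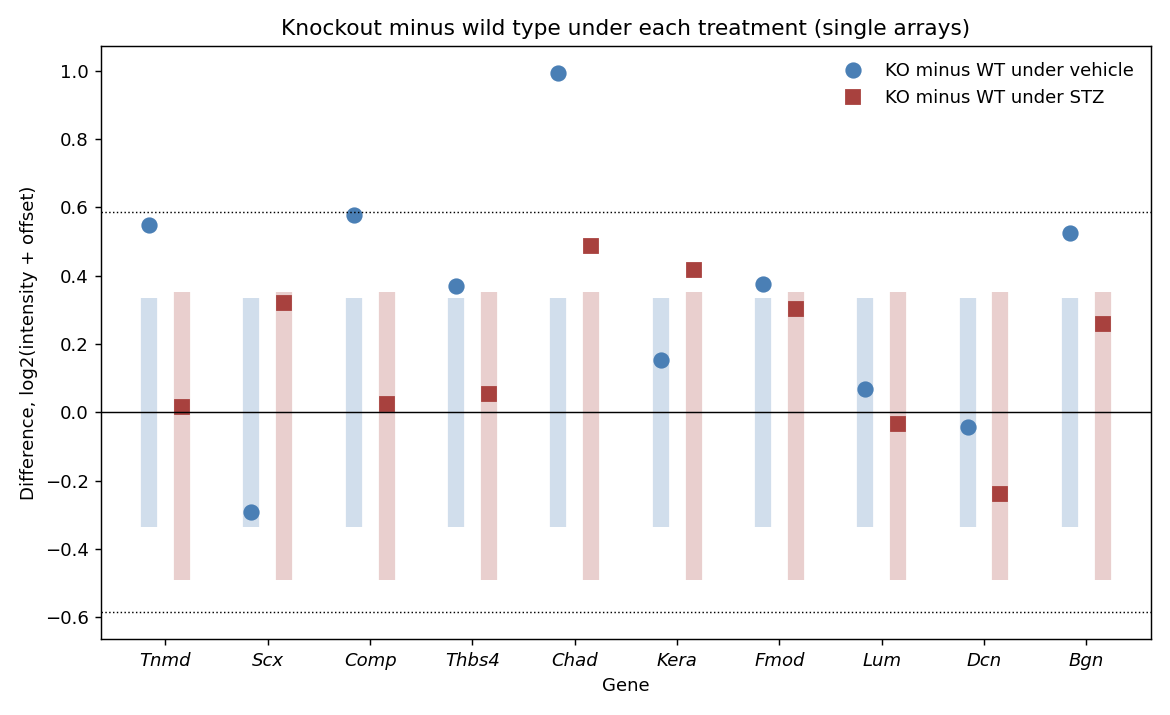
Difference between KO and WT in log2(intensity + offset) for each gene under vehicle (circles) and under STZ (squares), 1 array per group. Pale bars run from percentile 5 to percentile 95 of all 13258 tested genes (-0.34 to 0.34 under vehicle, -0.49 to 0.35 under STZ), and dotted lines mark 1.5-fold; Chad, Comp, Tnmd, Bgn, Fmod and Thbs4 lie above the bar under vehicle, and Chad and Kera under STZ.

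The KO comparisons under vehicle and STZ use separate arrays. Both KO arrays lay above both WT arrays in 6 of the 10 genes, namely Fmod, Comp, Thbs4, Chad, Kera and Bgn, against 15.8% of tested genes. Under quantile normalization this count was 7, against 20.0%. For Comp and Thbs4 the order rests on KO differences under STZ of only 0.024 and 0.054. The same order was seen in 4 of 7 endothelial, 5 of 11 fibroblast and 3 of 8 macrophage markers. It was seen in 2 of 10 muscle fibre markers, 0 of 7 smooth muscle and pericyte markers and 0 of 5 adipocyte markers. The order was therefore not particular to the 10 genes.

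In the WT comparison of STZ with vehicle, which asks what diabetes changed in normal muscle, the median of the 10 genes was 0.21 against 0.0075 over all tested genes. Of the 10, 8 were above 0, against 51.5%, and Scx (-0.30) and Kera (-0.035) were below. None reached 1.5-fold, against 1.27% of tested genes higher and 0.445% lower, or 0.0981% and 0.0226% at 2-fold. Over all genes 169 were higher and 59 lower, and 122 and 69 under quantile normalization. Among genes above percentile 75 of level, where all 10 lie, the median was 0.035, with 4097 of 7212 above 0. Of the 10 genes, Tnmd was highest at 0.57, followed by Comp at 0.42 and Lum at 0.30. This comparison shares the WT vehicle array with the KO comparison under vehicle, so the same low array enters both values of Tnmd and Comp. The WT vehicle array was the lowest of the 4 for 7 of the 10 genes, against 20.6% of tested genes. This was not particular to the 10 genes. That array was lowest for 5 of 8 other leucine-rich proteoglycan genes and 7 of 16 other tendon genes. It was also lowest for 5 of 8 macrophage and 6 of 11 fibroblast markers. For collagens the count was 0 of 9, for adipocyte markers 0 of 5 and for muscle fibre markers 1 of 10.

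In KO muscle the STZ comparison gave a median of 0.0093, against -0.032 over all tested genes. Of the 10 genes, 5 were above 0 and 5 below, against 42.8% of tested genes above 0. None reached 1.5-fold, against 0.445% of tested genes higher and 0.656% lower, or 0.0377% and 0.0453% at 2-fold. Among genes above percentile 75 of level the median was -0.063, with 2595 of 7212 above 0. Of the 10 genes, Scx was highest at 0.31 and Chad lowest at -0.24. Dcn (-0.021) and Bgn (-0.056) turned positive under quantile normalization, at 0.048 and 0.024, and also with the loess trend removed.

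The STZ difference in KO, less the STZ difference in WT, had a median of -0.23 over the 10 genes, against -0.048 over all tested genes, and uses all 4 arrays. Only Scx and Kera were above 0, at 0.61 and 0.26, against 42.9% of tested genes above 0. Among genes above percentile 75 of level, where all 10 lie, the median was -0.098, with 2468 of 7212 above 0. Scx was the 1 gene past 1.5-fold on the higher side, against 1.76% of tested genes, and 0 passed on the lower side, against 3.91%. None reached 2-fold, against 0.136% higher and 0.249% lower. In 5 of the 10 genes, Comp, Thbs4, Chad, Dcn and Bgn, STZ stood above vehicle in WT and below it in KO, against 28.6% of tested genes and 33.6% of those above percentile 75 of level. Under quantile normalization, and with the loess trend removed, Dcn and Bgn left this pattern and 3 of the 10 genes kept it. Comp at -0.55, Tnmd at -0.53 and Chad at -0.51 were the lowest. Over all genes 233 were higher and 519 lower, and 289 and 369 under quantile normalization, where the median of the 10 genes was -0.096.

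Other tendon genes were taken from a list of 16, also chosen with earlier results of these data known, and all passed the level filter. Their median KO difference was 0.17 under vehicle and 0.21 under STZ, and 13 of 16 were above 0 in each, against 49.1% and 41.8% of tested genes. Under vehicle 4 of 16 were at least 1.5-fold higher, against 0.581% of tested genes: Prg4, which encodes the lubricant lubricin, at 0.90, Cilp, a cartilage intermediate layer protein gene, at 0.80, Angptl7 at 0.71 and Col12a1, a fibril-associated collagen gene, at 0.60. Prg4 read 29.4 on WT vehicle, 48.3 on WT STZ, 58.2 on KO vehicle and 57.6 on KO STZ. Cilp read 29.1, 45.6, 53.4 and 47.1 in that order. Both resemble Tnmd in that WT vehicle was low. Under STZ their KO differences were 0.24 and 0.046. Col22a1, a collagen gene of the myotendinous junction, was the 1 gene past 1.5-fold higher under STZ, at 0.78, against 0.845% of tested genes. Col22a1 read 23.5 on WT vehicle, 14.95 on WT STZ, 21.7 on KO vehicle and 28.4 on KO STZ. Its KO difference under vehicle was -0.10. Both KO arrays lay above both WT arrays in 10 of these 16 genes, against 15.8% of tested genes. None was 1.5-fold lower in either KO comparison, against 0.777% of tested genes under vehicle and 2.81% under STZ.

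Of 12 other leucine-rich proteoglycan genes, 11 were on the array and 8 passed the level filter. Under vehicle 8 of 8 stood above 0 in KO, against 49.1% of tested genes, and under STZ 3 of 8 did, against 41.8%. The medians were 0.15 and -0.078. With no level filter, which adds dim genes to the list, they were 0.074 and 0.026. The added genes Epyc, Podnl1 and Nyx stood below 0 under vehicle, at -0.12, -0.086 and -0.036. Podn at 0.015 and Ogn at 0.064 were close to 0 there. In the RefSeq table Fmod lies next to Prelp, whose product is a heparin-binding relative of fibromodulin, and Prelp read 163.2 on WT vehicle, 184.0 on WT STZ, 259.8 on KO vehicle and 244.4 on KO STZ. Like Fmod, Prelp was higher on both KO arrays, by 0.66 and 0.40. Dcn, Lum, Kera and Epyc lie next to each other on chromosome 10, and Epyc did not pass the level filter. Kera was higher on both KO arrays, while Dcn and Lum were highest in WT STZ.

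The 4 genes Ecm2, Aspn, Omd and Ogn were highest on the WT STZ array. Aspn encodes asporin, a relative of decorin, and read 84.7 on WT vehicle, 152.9 on WT STZ, 100.7 on KO vehicle and 87.8 on KO STZ. Ogn, which encodes osteoglycin, read 232.2, 322.6, 242.9 and 268.0 in that order. The STZ difference in WT was 0.83 for Aspn, 0.47 for Ogn, 0.47 for Omd and 0.35 for Ecm2, and in KO it was -0.19, 0.14, 0.030 and 0.13. The WT STZ array was the highest for 32.2% of tested genes and for 40.2% of those above percentile 75 of level. Optc and Podn had KO differences between -0.077 and 0.074 in both treatments.

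**Figure D3:**
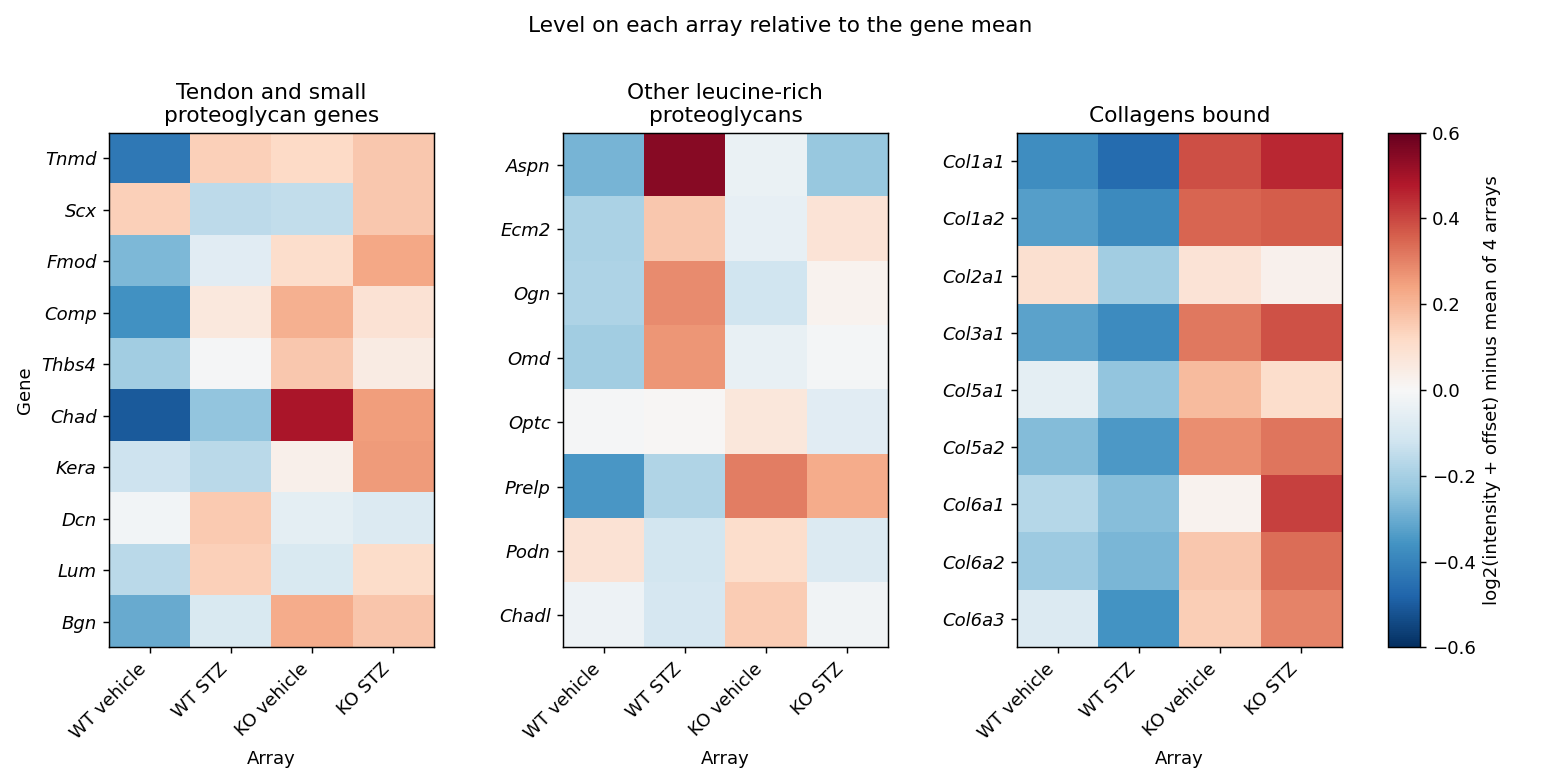
Colour gives log2(intensity + offset) on each of the 4 arrays minus the gene's own mean over the arrays, for the 10 genes, for the 8 other leucine-rich proteoglycan genes past the level filter and for 9 collagen genes. Blue WT columns against red KO columns mark the collagens Col1a1, Col1a2 and Col3a1, WT vehicle alone is low for Tnmd and Comp, and WT STZ alone is high for Aspn.

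Collagens that these proteins bind were next, again in a list chosen with earlier results of these data known. Of 9 collagen genes, 8 had both KO arrays above both WT arrays, against 15.8% of tested genes, and the median KO difference was 0.38 under vehicle and 0.66 under STZ. Under vehicle 3 of 9 were at least 1.5-fold higher, against 0.581% of tested genes, and under STZ 7 of 9 were, against 0.845%. Col1a1, the main fibril collagen gene, read 424.5 on WT vehicle, 398.7 on WT STZ, 721.3 on KO vehicle and 755.8 on KO STZ. Col3a1 read 279.7, 268.4, 437.6 and 457.4. The median STZ difference of the collagens was -0.086 in WT, with 9 of 9 below 0, against 6397 of 13258 tested genes, where 8 of the 10 tendon and proteoglycan genes were above 0. The difference between these gene groups was not tested.

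Thrombospondins related to Comp and Thbs4 did not share 1 order of arrays. Thbs1, an activator of latent TGF-beta, read 17.7 on WT vehicle, 27.9 on WT STZ, 39.3 on KO vehicle and 21.1 on KO STZ, with a KO difference of 1.01 under vehicle and -0.35 under STZ. Thbs2 read 39.3, 53.7, 37.5 and 50.3, with both STZ arrays high as for Lum. Thbs3 had KO differences of 0.30 and 0.11.

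The TGF-beta pathway, which drives tendon matrix genes, and tendon regulators made up a list of 15 genes, all past the level filter. Their median KO difference was 0.076 under vehicle and -0.17 under STZ, and 2 of 15 were above 0 under STZ. The whole array leaned the same way there, with 41.8% of tested genes above 0, and 2259 of 7212 genes above percentile 75 of level, where the median was -0.11. Under vehicle 1 was 1.5-fold higher, against 0.581% of tested genes: Ccn2, a TGF-beta target, at 0.59. On the lower side 1 passed, against 0.777% of tested genes: Egr1, at -0.79. Egr1 encodes a transcription factor that acts in tendon formation and in the immediate early response. It read 28.1 on WT vehicle, 57.7 on WT STZ, 14.7 on KO vehicle and 10.1 on KO STZ, so it differed by -2.15 under STZ. Smad3, which carries the TGF-beta signal, differed by -0.57 between KO STZ and KO vehicle.

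Enzymes that build glycosaminoglycan chains had median KO differences of -0.081 under vehicle and -0.087 under STZ over the 16 of 19 listed genes that passed the level filter. Under vehicle 0 of 16 passed 1.5-fold, against 0.581% of tested genes higher and 0.777% lower. Under STZ Chsy1, a chondroitin synthase gene, stood at 0.59 and Fam20b, a xylose kinase gene, at -0.59, so 1 gene passed in each direction, against 0.845% of tested genes higher and 2.81% lower. Xylt1, which starts the chains, differed by -0.71 between KO STZ and KO vehicle. Receptors reported to bind proteoglycan core proteins, 8 of 8 past the filter, had medians of 0.15 and 0.17, with Igf1r highest at 0.41 and 0.46. None of these receptors passed 1.5-fold under vehicle, against 0.581% of tested genes higher and 0.777% lower. Under STZ none did either, against 0.845% and 2.81%.

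Markers of other cell types that a piece of muscle can hold were read beside the 10 genes. Fibroblast markers, 11 of 12 on the array and past the filter, had a summed intensity of 2032 on WT vehicle, 2188 on WT STZ, 2146 on KO vehicle and 2204 on KO STZ. Their median KO difference was 0.17 under vehicle, with Pdgfra at 0.27, and 0.096 under STZ. Under STZ 7 of 11 were above 0 and 4 below, from -0.26 to 0.65, with Clec3b highest and Pdgfra at -0.069. The 8 tendon markers, 7 of which are among the 10 genes, summed to 544.5, 618.3, 719.7 and 720.8. Cartilage markers summed to 57.1, 56.1, 55.1 and 61.3, and 4 of 8, among them Acan and Matn1, were below the level filter. Bone markers summed to 45.9, 42.7, 61.2 and 43.6, with 2 of 5 past the filter.

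Adipocyte markers, 6 of 7 on the array and 5 past the filter, summed to 1093, 1363, 1108 and 882.1 on WT vehicle, WT STZ, KO vehicle and KO STZ, and were lowest on KO STZ, as was Dcn alone of the 10 genes. Endothelial markers summed to 613.3, 614.5, 736.6 and 683.9, with a median KO difference of 0.24 under vehicle. Macrophage markers summed to 306.7, 384.2, 339.2 and 401.0, smooth muscle and pericyte markers to 1640, 1862, 1752 and 1648, Schwann cell markers to 247.8, 207.9, 209.9 and 192.9, and satellite cell markers to 63.9, 62.7, 64.5 and 66.1. These sums are weighted toward bright genes. On WT vehicle, Fabp4 read 933.6 of the adipocyte sum, and Rgs5 947.3 of the smooth muscle and pericyte sum. Pmp22 read 202.6 of the Schwann cell sum there, and Gsn 1142 of the fibroblast sum. On WT STZ, Fabp4 read 1194. No marker was at 0, and the lowest value in the whole table was 1.65. The part of cell content in the differences of the 10 genes was not tested.

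The 10 genes were not uniform among themselves. Centred on each gene's own mean, their average lay at -0.22 on WT vehicle, -0.021 on WT STZ, 0.10 on KO vehicle and 0.14 on KO STZ. Thbs4 (root mean square distance 0.055 over 4 arrays), Fmod (0.058) and Bgn (0.081) lay closest to this average, and Chad (0.27) and Scx (0.23) farthest. Outside the list, the 6 genes nearest to the average were Myo1e, Ankrd54, Twf1, Rnf113a1, Orai2 and Tmem120b, at distances from 0.0068 to 0.021. Myo1e, an unconventional myosin gene, read 25.02 on WT vehicle, 29.6 on WT STZ, 32.6 on KO vehicle and 33.7 on KO STZ. Likeness over 4 arrays is given as a description.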

How the data were processed

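Gastrocnemius RNA (4 ug, biotin-labelled cRNA) of 4 groups was measured on 4 Affymetrix arrays, per the labels' protocols. The deposited table holds 1 linear intensity per transcript cluster and array, 41345 clusters in all. The sources used here do not give the authors' background correction, summary method or scaling. The number of arrays limits the precision. Platform annotation gave 1 symbol to 23521 clusters, several to 1814 and none to 16010; 23328 of the first matched a RefSeq gene by Entrez number. A gene was read by its brightest single-symbol cluster as log2(intensity + 3.69), and kept above the median of all clusters (intensity 5.81).

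Differences were computed without a test for 5 comparisons, with counts at 1.5-fold. The calculation was tested on simulated data with planted changes larger than the differences of the 10 genes. The simulation checks the arithmetic and says nothing about how reliable those differences are. Python 3.11.15, pandas 2.3.3 and statsmodels 0.14.6 were used. The members and lists were chosen with earlier results of these data known. Named are the 10 genes, up to 4 genes of each list with the largest absolute difference in a comparison, the 6 genes of nearest profile, defining markers and Klf15. Alternatives were quantile normalization, a loess trend removed, offsets of 0 and 16, the mean of a gene's clusters, no level filter, and one at percentile 75.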

Additional observations from a re-analysis of the deposited data

Results flagged for a closer look

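Results are listed here because the STZ effect ran in opposite directions in WT and KO, or the KO effect in opposite directions under vehicle and STZ. With 1 array per group the difference was not tested. The pattern of STZ above vehicle in WT and below it in KO was seen in 5 of the 10 genes and in 28.6% of all tested genes. The share of all tested genes was not computed for the reverse STZ pattern or for opposite KO effects. The list therefore does not show how unusual these genes are. Values are the STZ difference in KO less the STZ difference in WT, on the log2 scale.

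Among the 10 genes the value was 0.61 for Scx, -0.55 for Comp, -0.31 for Thbs4, -0.51 for Chad, 0.26 for Kera, -0.20 for Dcn, -0.10 for Lum (0.016 under quantile normalization) and -0.27 for Bgn. Scx was the 1 gene of these past 1.5-fold. The opposite signs rest on small effects for Kera (-0.035 in WT), Dcn (-0.021 in KO) and Bgn (-0.056 in KO), and for Lum on KO effects of 0.068 under vehicle and -0.033 under STZ. The STZ effect in KO of Dcn and Bgn, and the KO effect of Lum under STZ, turned positive under quantile normalization and with the loess trend removed.

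Among related proteoglycans and thrombospondins the value was -0.26 for Prelp, -1.01 for Aspn, -0.33 for Ogn, -0.44 for Omd, -0.22 for Ecm2, -0.15 for Optc, -1.36 for Thbs1 and -0.20 for Thbs3. Tendon matrix genes stood at -0.75 for Cilp, -0.67 for Prg4, -0.49 for Col12a1, -0.50 for Angptl7 and 0.88 for Col22a1. Collagens stood at 0.16 for Col1a1, 0.064 for Col1a2, 0.12 for Col3a1 and 0.47 for Col6a1.

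Regulators and chain enzymes stood at -1.36 for Egr1, -0.54 for Ccn2, -0.53 for Smad3, -0.54 for Xylt1 and -0.39 for Fam20b. Other genes were Klf15 at -0.74, Clec3b at 0.44, Pdgfra at -0.34, Acsf2 at -0.60, Bop1 at 0.24, Rnf113a1 at -0.19 and Tmem120b at -0.24. One of the opposed effects was near 0 for Tmem120b (-0.00021 in KO), Rnf113a1 (-0.011 in KO), Col1a2 (0.013 in KO), Prg4 (-0.015 in KO) and Optc (0.015 in WT).

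List medians with opposite signs were -0.031 for other tendon genes, -0.24 for other leucine-rich proteoglycans, -0.20 for other thrombospondins, 0.16 for collagens and -0.26 for the TGF-beta list. For markers they were 0.30 for cartilage, -0.72 for adipocyte, -0.27 for endothelial and -0.26 for smooth muscle. Some oppositions depended on the processing. Over all settings the STZ effect in WT ran from -0.0034 to 0.066 for other tendon genes and from -0.105 to 0.0089 for cartilage markers. The STZ effect in KO ran from -0.20 to 0.0096 for other thrombospondins.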

How the results depend on the processing

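The medians of the 10 genes kept their sign in all 5 comparisons under all 7 alternatives. They ranged from 0.28 to 0.43 for KO against WT under vehicle, 0.058 to 0.34 under STZ, 0.14 to 0.22 for STZ in WT, 0.0044 to 0.065 for STZ in KO and -0.26 to -0.096 for the difference between STZ effects. Of 350 single-gene values under alternatives, 11 changed sign, and all 11 arose under quantile normalization or with the loess trend removed. Dropping the level filter, or setting it at percentile 75, could not change any value of the 10 genes, because all 10 pass both filters. Averaging clusters could change only Fmod and Bgn. Kept signs under those alternatives were therefore mostly fixed in advance. Of 625 list medians under alternatives, 28 changed sign. Counts past 1.5-fold moved more. Genes 1.5-fold higher in KO under vehicle numbered 2 under quantile normalization, 2 with the loess trend removed and 3 with offset 0, against 1. Under STZ they numbered 1 under quantile normalization and 1 with the loess trend removed, against 0. Over all 13258 tested genes these counts were 155 and 133, against 112. With offset 0, 1 gene was higher for STZ in WT, against 0, and 2 were lower for the difference between STZ effects, against 0. Over all 13267 genes tested at offset 0, 309 were higher for STZ in WT, against 169. For the difference between STZ effects 862 were lower, against 519. With offset 16, 0 of the 10 genes were higher for that difference, against 1, and over all genes 35 were, against 233. The cause was not tested beyond the scale itself: offset 0 leaves dim genes undamped and offset 16 damps them more. Over all genes, those 1.5-fold higher in KO under vehicle numbered 191 with offset 0 and 18 with offset 16, against 77. They numbered 84 under quantile normalization and 75 with the loess trend removed. No paired analysis was possible because each group has 1 array and the labels give no replicate numbers. Detection calls were not used, so signal over background is not known.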
